A study of Mus musculus with 9 samples.

Results

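Collagen genes were examined in the tibialis anterior (TA), a fast-twitch muscle at the front of the lower leg, of mice in which muscle progenitors had lost the ability to fuse. The members are all gene rows of the array table whose symbol is Col, a number, the letter a, and a number, with the brightest row kept for each symbol. This gave 42 genes among 19572 symbols, with 0 symbols on several rows, so no row had to be chosen over another. Each of 9 mice gave 1 Clariom S Mouse array, and 3 mice made up each of the groups Δ1w, Δ2w, and control, all at P28. Myomaker, a membrane protein required for the fusion of muscle progenitors, is encoded by *Mymk*, which appears in the sample labels as 8c after its older name *Tmem8c*. Δ1w mice received tamoxifen at P0 and carried Pax7creER with the genotype 8c fl/fl and mTmG/+ (replicate 1), 8c LacZ/fl and mTmG/+ (replicate 5), or 8c fl/fl without the mTmG reporter (replicate 8). Δ2w mice (replicates 2, 3, and 4) received tamoxifen at P6 and were all 8c LacZ/fl with Pax7creER and mTmG/+. Control mice had no Cre and were 8c LacZ/fl (replicates 1 and 6) or 8c fl/fl (replicate 2), all with mTmG/+. Every mouse thus carried at least 1 floxed *Mymk* allele, and Pax7creER confines the deletion to satellite cells, the stem cells of muscle, and what they give rise to. Labels record no tamoxifen for controls, whereas the methods give it to all mice. Average nuclei per myofiber in the labels are 55 for Δ1w, 100 for Δ2w, and 233 for control muscle. The paper counted nuclei in isolated fibers of another muscle, the extensor digitorum longus, and for Δ2w mice at a later age than the arrays.

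Collagens are secreted or membrane proteins with long stretches of glycine repeats, and their chains wind into a helix. In muscle, fibrils of types I, III, and V fill the endomysium, perimysium, and epimysium, and are made mainly by fibroblasts. Type IV collagen forms the sheet of the basement membrane around each myofiber and capillary, and type VI collagen forms beaded microfibrils that tie this sheet to the fibrils outside it. Chains are hydroxylated and folded in the endoplasmic reticulum, trimmed outside the cell, and crosslinked by lysyl oxidases.

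*Mymk* itself had log2 signals of 8.99, 7.49, and 7.94 in Δ1w muscle and 8.39, 7.67, and 6.70 in Δ2w muscle, against 11.82, 12.03, and 11.61 in control muscle. It was lower in both models (Δ1w −3.68, adjusted p = 0.00262; Δ2w −4.23, adjusted p = 0.00784; limma). Myofiber genes marked all arrays as skeletal muscle, with *Acta1*, skeletal actin, between 19.88 and 19.93, near the highest signal of 19.93. In control replicate 6 the mean log2 signal over 6 cartilage and bone markers was 6.23, whereas it lay between 4.48 and 4.93 on the other 8 arrays. A prefix in the sample names is shared by Δ1w replicates 5 and 8, and another by all Δ2w mice and control replicates 1 and 6, while Δ1w replicate 1 and control replicate 2 each had their own. No Δ1w mouse shared a prefix with a control or Δ2w mouse, so prefix and group cannot be told apart in either comparison of Δ1w muscle. The 5222 negative control rows had a median log2 signal of 6.00, and 95% of them lay under 9.58, which is called the background limit here. Averaged over the 9 arrays, 9 collagen genes were above that limit (*Col1a1*, *Col1a2*, *Col3a1*, *Col4a1*, *Col4a2*, *Col6a1*, *Col6a2*, *Col6a3*, and *Col15a1*) and 33 were not. Fold changes are given for the 9 genes only, because a difference between signals near background is not a fold change in transcript.

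The question of the main comparison was how muscle with the fewest nuclei differs from control muscle. In Δ1w muscle, 26 collagen genes were higher and 16 lower than in control muscle, with a median difference of 0.15 on the log2 scale, against −0.00 over all 22206 gene rows, of which 49.7% were higher. *Col5a3*, a chain of fibril-forming type V collagen, was the 1 member of 42 that passed the test across all rows (limma with Benjamini-Hochberg adjustment, adjusted p under 0.05), and 1.41% of all rows passed. At an unadjusted p under 0.05, 13 collagen genes were higher, against 7.2% of all rows, and *Col26a1* alone was lower, against 6.79% of rows. In 9 collagen genes all Δ1w arrays lay above all control arrays, against 8.53% of rows, and in *Col26a1* all lay below, against 8.95% of rows. By class, the median difference was 0.74 for 11 fibrillar genes, 0.64 for 6 microfibrillar genes, 0.53 for 2 multiplexin genes, 0.08 for 8 fibril-associated genes, and 0.06 for 6 basement membrane genes. It was −0.04 for 4 transmembrane genes, −0.19 for 3 network-forming genes, and −0.38 for 2 other genes. Above the background limit lay 3 of 11 fibrillar, 3 of 6 microfibrillar, 2 of 6 basement membrane, and 1 of 2 multiplexin genes. The other classes had 0, so the class medians mix bright and dim genes in unequal shares. Over the 9 genes above the limit the median was 0.79, with all 9 higher. Over the 33 others it was 0.02, with 17 higher and 16 lower. Without Δ1w replicate 5 the fibrillar median was 0.47, and the microfibrillar median stayed between 0.54 and 0.71 whichever mouse was left out. The basement membrane median was −0.018 without Δ1w replicate 5 and −0.013 without Δ1w replicate 8, the fibril-associated median −0.0066 without Δ1w replicate 8. The median over all 42 genes was 0.26 without Δ1w replicate 1 and 0.058 without Δ1w replicate 8. In the plot of all 42 members these classes are set beside each other for both models.

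**Figure D1:**
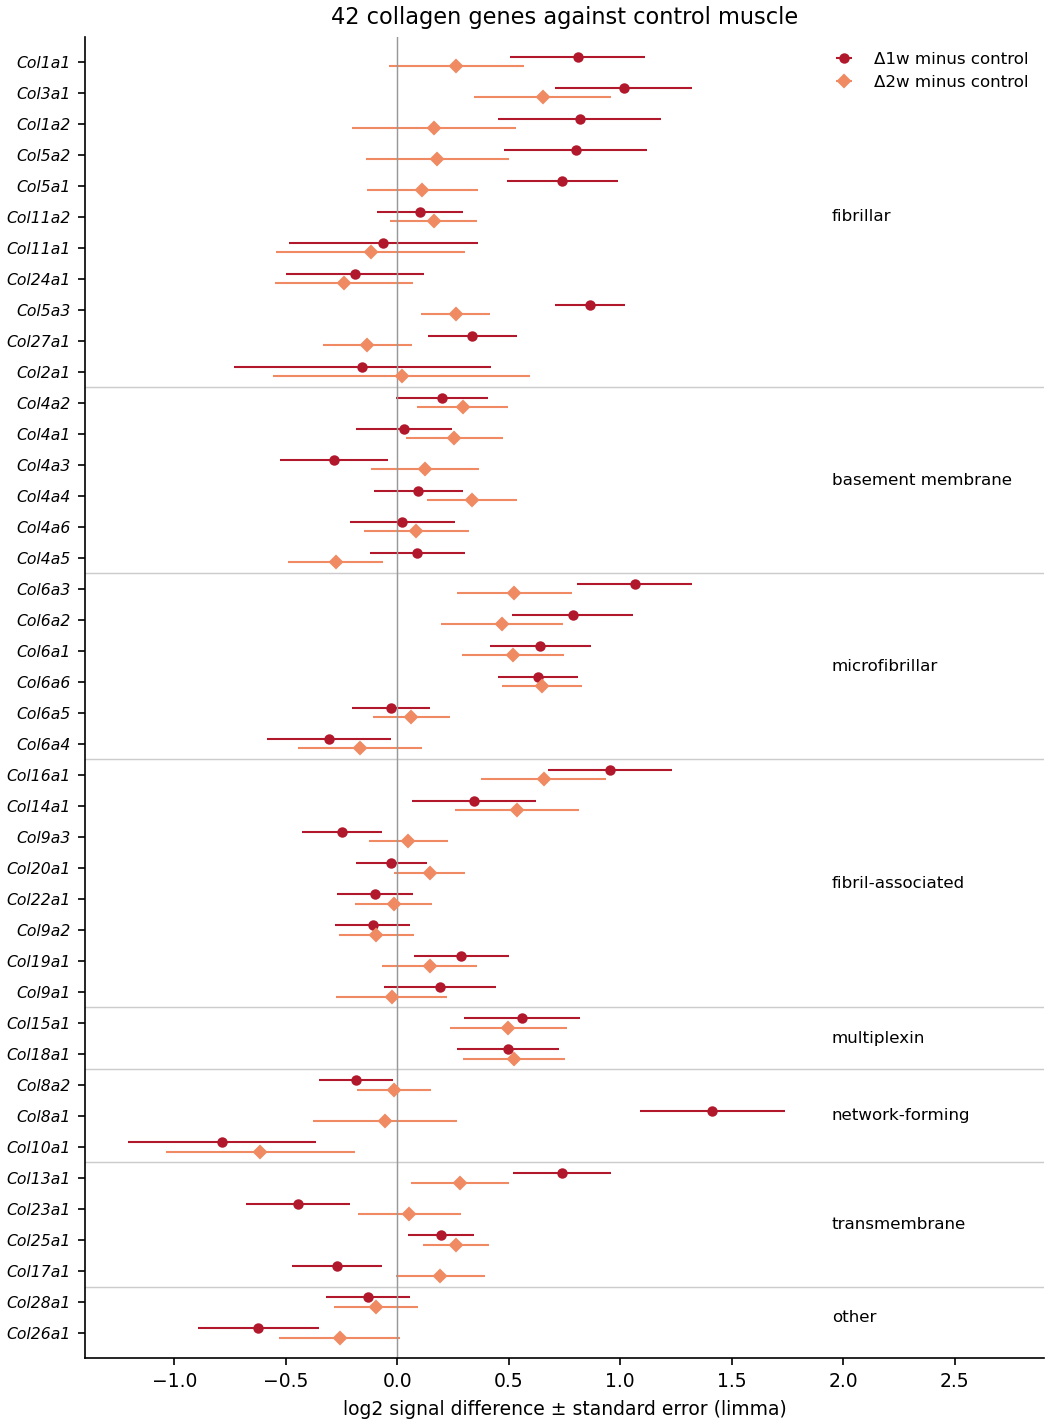
Difference in log2 signal from control muscle for each of 42 collagen genes, Δ1w (red circles) and Δ2w (orange diamonds), with bars of 1 standard error from the limma model (3 mice per group). Genes run down the page by class. In Δ1w muscle *Col8a1* had the highest difference at 1.41 and *Col10a1* the lowest at −0.79.

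Fibrillar collagens held 6 of the 13 genes that were higher in Δ1w muscle at an unadjusted p under 0.05. *Col1a1* and *Col1a2* encode the chains of type I collagen, the main fibril of muscle connective tissue, tendon, and bone. *Col1a1* had log2 signals of 16.34, 17.63, and 17.39 in Δ1w muscle (replicates 1, 5, and 8) and 16.71, 16.45, and 16.57 in Δ2w muscle (replicates 2, 3, and 4), against 16.31, 15.95, and 16.68 in control muscle (replicates 1, 2, and 6). *Col1a2* had 15.15, 16.76, and 16.29 in Δ1w muscle and 15.75, 14.87, and 15.62 in Δ2w muscle, against 15.21, 14.96, and 15.57 in control muscle. In both genes Δ1w replicates 5 and 8 were the highest of all 9 arrays, and Δ1w replicate 1 lay within the controls, so the groups overlapped. The difference between Δ1w and control muscle was 0.81 for *Col1a1* (1.75-fold, standard error 0.30, adjusted p = 0.246) and 0.82 for *Col1a2* (1.76-fold, standard error 0.37, adjusted p = 0.347), and neither passed. *Col3a1*, whose type III collagen forms thin fibrils in the endomysium, had 16.24, 17.23, and 17.16 in Δ1w muscle and 16.77, 16.06, and 16.71 in Δ2w muscle, against 16.18, 15.35, and 16.05 in control muscle. All Δ1w values were above all control values, by a mean of 1.01 (2.02-fold, standard error 0.31, adjusted p = 0.145), and Δ2w values overlapped both groups.

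Type V collagen is a minor component that starts fibril assembly and sets fibril width, and the *Col5a3* chain occurs in fewer tissues than those of *Col5a1* and *Col5a2*. *Col5a3* had log2 signals of 6.57, 6.41, and 6.36 in Δ1w muscle and 5.93, 5.77, and 5.83 in Δ2w muscle, against 5.71, 5.53, and 5.50 in control muscle. The groups did not overlap, with Δ2w muscle between Δ1w and control muscle. The gene rose by 0.86 in Δ1w muscle (standard error 0.16, 95% interval 0.53 to 1.20, adjusted p = 0.0208 from limma), at signals that lie near the median of the negative controls. Its adjusted p was 0.0534 without Δ1w replicate 8, 0.0686 without Δ1w replicate 5, 0.0663 without control replicate 2, and 0.0723 without control replicate 6, with differences of 0.83 to 0.91, so the call did not hold in these 4 fits. *Col5a1* averaged 8.49 ± 0.25 in Δ1w muscle, 7.86 ± 0.34 in Δ2w muscle, and 7.74 ± 0.44 in control muscle (SD, n = 3 each), and *Col5a2* averaged 9.32 ± 0.67 in Δ1w muscle, 8.70 ± 0.25 in Δ2w muscle, and 8.52 ± 0.47 in control muscle. Their Δ1w differences were 0.74 and 0.80 (adjusted p = 0.188 and 0.287), and in both Δ1w replicates 5 and 8 were the highest arrays. Remaining fibrillar genes belong mostly to cartilage or are rare chains. *Col27a1* differed by 0.34, *Col11a2* by 0.10, *Col11a1* by −0.06, *Col2a1* by −0.16, and *Col24a1* by −0.19, with adjusted p between 0.501 and 0.969. *Col2a1* and *Col11a1*, which build cartilage fibrils, were highest in control replicate 6 (6.63 and 8.17), the array with the high cartilage and bone markers.

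Promoter sequence was set beside these values because several fibrillar genes were high on the same arrays. Of the 42 genes, 34 had promoter windows in a RefSeq table of the GRCm38.p6 build, 37 windows in all. The 150 bases before the annotated start are shown for *Col1a2* (chr6:4505468-4505617, plus strand) and *Col3a1* (chr1:45311388-45311537, plus strand), bright fibrillar genes high on Δ1w replicates 5 and 8, for *Col5a3* (chr9:20815068-20815217, minus strand), the member that passed, and for *Col8a1* (chr16:57754738-57754887, minus strand), the member with the highest difference. Capitals mark 3 motifs on either strand, with 0 overlapping matches. These were the CCAAT box, the TATAAA form of the TATA box, and the GC box, written GGGCGG here.
*Col1a2*: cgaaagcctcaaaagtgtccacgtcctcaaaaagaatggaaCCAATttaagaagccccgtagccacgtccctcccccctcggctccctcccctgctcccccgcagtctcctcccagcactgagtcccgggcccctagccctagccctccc
*Col3a1*: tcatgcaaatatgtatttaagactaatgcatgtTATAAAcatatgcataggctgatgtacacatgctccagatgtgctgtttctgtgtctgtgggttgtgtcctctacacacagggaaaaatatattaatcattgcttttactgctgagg
*Col5a3*: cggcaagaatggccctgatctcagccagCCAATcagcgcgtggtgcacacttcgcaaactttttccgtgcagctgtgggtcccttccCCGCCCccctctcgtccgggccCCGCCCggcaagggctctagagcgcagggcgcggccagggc
*Col8a1*: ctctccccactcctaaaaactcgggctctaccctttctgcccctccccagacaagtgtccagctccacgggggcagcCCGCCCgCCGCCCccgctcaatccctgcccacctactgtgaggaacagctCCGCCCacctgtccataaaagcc
*Col1a2* and *Col5a3* each have a CCAAT, *Col3a1* has a TATAAA, and *Col5a3* and *Col8a1* have GGGCGG read on the opposite strand, with 1 match in each of *Col1a2* and *Col3a1* and 3 in each of *Col5a3* and *Col8a1*. Over the 250 bases before the start, both strands, CCAAT occurred in 12 of 37 collagen windows (32.4%) and in 33.8% of all 32851 windows, and TATAAA in 5 (13.5%) and in 12.4% of all windows. GGGCGG occurred in 21 (56.8%) and in 32.7% of all windows, and CAGACA, the core of SMAD binding elements, in 8 (21.6%) and in 17.1% of all windows. These are descriptions of letters in a window and were not tested. *Col4a1* and *Col4a2* have annotated starts 21 bases apart on opposite strands of chromosome 8. Their first transcribed bases overlap there, and their windows of 250 bases before the start do not.

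Of 6 microfibrillar genes, the type VI chains, 0 passed in Δ1w muscle in limma, against 1.41% of all rows. At an unadjusted p under 0.05, 4 were higher, against 7.2% of rows. *Col6a1*, *Col6a2*, and *Col6a3* encode the chains of the common heterotrimer, and loss of any of them causes muscular dystrophy in humans. *Col6a3* had log2 signals of 12.50, 13.34, and 13.41 in Δ1w muscle and 12.61, 12.24, and 12.77 in Δ2w muscle, against 12.30, 11.76, and 11.98 in control muscle. All Δ1w arrays lay above all control arrays, and the difference of 1.06 (2.09-fold, standard error 0.26, 95% interval 0.50 to 1.63, adjusted p = 0.0708) did not pass. *Col6a2* had 12.11, 13.05, and 13.15 in Δ1w muscle and 12.64, 12.10, and 12.63 in Δ2w muscle, against 12.25, 11.89, and 11.82 in control muscle. *Col6a1* had 10.32, 11.15, and 11.24 in Δ1w muscle and 10.75, 10.80, and 10.78 in Δ2w muscle, against 10.41, 10.26, and 10.12 in control muscle. In both, Δ1w replicates 5 and 8 were the highest arrays and Δ1w replicate 1 lay within the controls. Their differences were 0.79 for *Col6a2* (1.72-fold, adjusted p = 0.204) and 0.64 for *Col6a1* (1.56-fold, adjusted p = 0.216). *Col6a6*, a long chain that can take the place of the *Col6a3* chain, had 8.47, 7.96, and 8.20 in Δ1w muscle and 8.30, 8.08, and 8.32 in Δ2w muscle, against 7.74, 7.53, and 7.47 in control muscle. Every array of both models lay above every control array, here with Δ1w replicate 1 highest, and the Δ1w difference was 0.63 (adjusted p = 0.122). The related chains *Col6a5* and *Col6a4* differed by −0.03 and −0.31 (adjusted p = 0.967 and 0.685).

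No basement membrane collagen passed the test in Δ1w muscle, against 1.41% of all rows, and the class median was 0.06. *Col4a1* and *Col4a2* encode the chains found in almost every basement membrane, that of the myofiber included. *Col4a1* had log2 signals of 9.83, 10.43, and 10.63 in Δ1w muscle and 10.51, 10.34, and 10.71 in Δ2w muscle, against 10.36, 10.35, and 10.09 in control muscle. *Col4a2* had 11.77, 12.38, and 12.41 in Δ1w muscle and 12.25, 12.20, and 12.40 in Δ2w muscle, against 12.23, 11.83, and 11.91 in control muscle. In both genes Δ1w replicate 1 was the lowest of the 9 arrays and Δ1w replicates 5 and 8 lay above the highest control. The Δ1w difference was 0.03 for *Col4a1* (1.02-fold, 95% interval −0.44 to 0.50) and 0.20 for *Col4a2* (1.15-fold, 95% interval −0.25 to 0.65), so a log2 difference above 0.50 for *Col4a1* lies outside its interval. With arrays centred on their medians the *Col4a1* difference was −0.01. *Col4a3*, *Col4a4*, *Col4a5*, and *Col4a6*, whose chains are best known from kidney and smooth muscle basement membranes, differed by −0.28, 0.09, 0.09, and 0.02 (adjusted p from 0.664 to 0.981).

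Among the smaller classes, *Col8a1* had the highest Δ1w difference of all members. Together with *Col8a2* it forms the hexagonal lattice of type VIII collagen, known from the cornea and vessel walls. *Col8a1* had log2 signals of 6.50, 7.73, and 7.66 in Δ1w muscle and 6.07, 5.47, and 5.93 in Δ2w muscle, against 5.63, 5.65, and 6.36 in control muscle. All Δ1w arrays lay above the other 6 arrays, by a mean of 1.41 over control muscle (standard error 0.32, 95% interval 0.70 to 2.12), and the adjusted p of 0.0583 did not pass. *Col8a2* differed by −0.19, and *Col10a1*, a marker of hypertrophic cartilage, by −0.79 (adjusted p = 0.445) with its highest signal, 5.84, in control replicate 6. *Col13a1*, a membrane collagen of the neuromuscular synapse, had 7.74, 7.94, and 7.78 in Δ1w muscle and 7.41, 7.25, and 7.41 in Δ2w muscle, against 7.63, 6.80, and 6.80 in control muscle. Its Δ1w arrays lay above all others, with a difference of 0.74 (adjusted p = 0.136), and it passed in 1 of 19 alternatives, with an adjusted p of 0.0315 without control replicate 1, the highest control, and of 0.0842 to 0.6 in the others. Of 6 markers of the neuromuscular synapse, 1 passed in Δ1w muscle, against 1.41% of all rows. This was *Etv5*, at 1.18 (limma, adjusted p = 0.0351), and the median of the 6 was 0.01. Transmembrane genes *Col25a1*, *Col17a1*, and *Col23a1* differed by 0.20, −0.27, and −0.44 (adjusted p from 0.432 to 0.617).

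*Col16a1*, a fibril-associated collagen, had log2 signals of 8.48, 9.52, and 8.85 in Δ1w muscle and 8.67, 8.66, and 8.63 in Δ2w muscle, against 8.48, 7.51, and 8.00 in control muscle. The Δ1w difference was 0.95 (standard error 0.28, adjusted p = 0.131), and the lowest Δ1w array and the highest control array were nearly equal. *Col14a1*, a fibril-associated collagen of tendon and muscle, averaged 8.36 ± 0.26 in Δ1w muscle, 8.56 ± 0.56 in Δ2w muscle, and 8.02 ± 0.36 in control muscle (SD, n = 3 each). *Col9a1*, *Col9a2*, and *Col9a3*, partners of cartilage fibrils, differed by 0.19, −0.11, and −0.25, and *Col19a1*, *Col20a1*, and *Col22a1* by 0.29, −0.03, and −0.10. *Col22a1* is known from the myotendinous junction. The multiplexins *Col15a1* and *Col18a1* lie at the outer face of basement membranes of muscle and vessels. *Col15a1* had 10.09, 10.21, and 11.22 in Δ1w muscle and 10.44, 10.25, and 10.65 in Δ2w muscle, against 10.02, 9.90, and 9.92 in control muscle. Every array of both models was above every control array, and the Δ1w difference was 0.56 (1.47-fold, adjusted p = 0.37), to which Δ1w replicate 8 contributed most. *Col18a1* differed by 0.50 (adjusted p = 0.361). *Col28a1*, known from peripheral nerve, and *Col26a1* differed by −0.13 and −0.62 (adjusted p = 0.819 and 0.333).

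**Figure D2:**
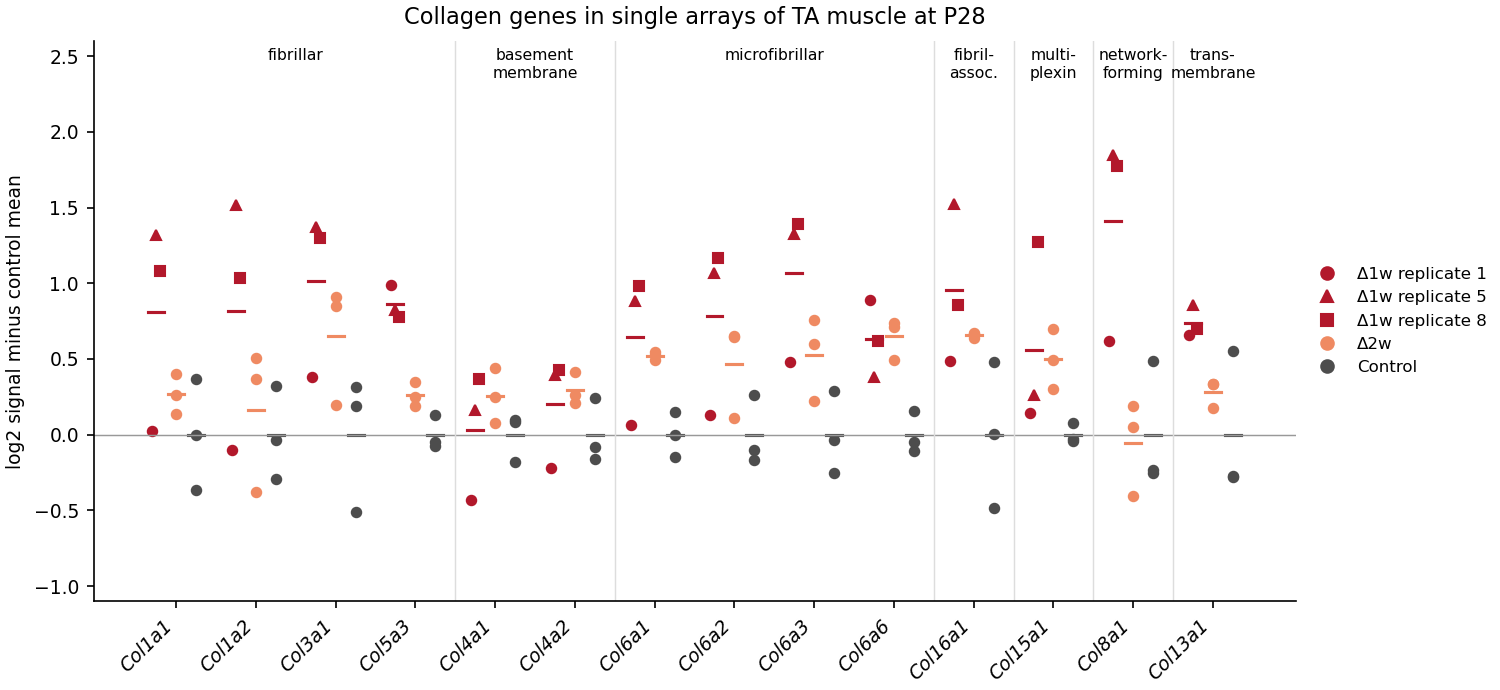
Log2 signal minus the control mean on single arrays for 14 collagen genes, ordered by class, for Δ1w (red, a symbol per replicate), Δ2w (orange), and control (grey), with short lines at the group means. Δ1w replicates 5 and 8 (triangles and squares) sit above the other 7 arrays in genes such as *Col1a1*, *Col3a1*, and *Col6a3*, and Δ1w replicate 1 (circles) is the highest array in *Col5a3*.

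Δ1w replicates 5 and 8 both lay above the other 7 arrays in 12 of 42 collagen genes, against 6.14% of all rows. These were 6 of 11 fibrillar genes, 3 of 6 microfibrillar genes, *Col16a1*, *Col8a1*, and *Col13a1*, with 0 of 6 basement membrane genes. This pair of arrays was picked after the values were seen. The count is therefore a description, and the share over all rows does not make it a test. Δ1w replicate 1 was the lowest Δ1w array in 31 of 42 genes, 9 of the 9 above the background limit and 22 of the 33 others. The share over all rows was not computed, so this count is not read as particular to collagen genes. Averaged over the 9 genes above the limit, Δ1w replicates 1, 5, and 8 lay 0.05, 0.92, and 1.0 above the control mean on the log2 scale. Averaged over the 11 fibrillar genes they lay at −0.02, 0.84, and 0.56, while control replicates 1, 2, and 6 lay at −0.04, −0.35, and 0.39. Microfibrillar genes averaged 0.09, 0.56, and 0.74, and basement membrane genes −0.09, 0.09, and 0.08, in Δ1w replicates 1, 5, and 8. Without Δ1w replicate 1, 9 collagen genes passed (*Col1a1*, *Col1a2*, *Col3a1*, *Col5a3*, *Col6a1*, *Col6a2*, *Col6a3*, *Col8a1*, and *Col16a1*, all higher), against 2.94% of all rows. When Δ1w replicates 5 and 8 were both left out, a fit chosen after seeing the data, 0 passed in limma with Benjamini-Hochberg adjustment (3 higher and 2 lower at an unadjusted p under 0.05, the lone array being assumed to vary like the other groups), and the medians were 0.03 for fibrillar and 0.10 for microfibrillar genes. *Col5a3*, at 0.99, and *Col6a6*, at 0.89, were as high in Δ1w replicate 1 as in the other Δ1w arrays. Without control replicate 1, 2 collagen genes passed (*Col5a3* and *Col13a1*), against 0.666% of rows. In the fits without control replicate 2, control replicate 6, Δ1w replicate 5, or Δ1w replicate 8, 0 passed in limma, against 0.703%, 0.657%, 0.468%, and 0.59% of rows, with 9 to 13 genes higher and 0 to 2 lower at an unadjusted p under 0.05.

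Markers of other cell types are given beside the collagen values. All 7 measured fibroblast markers of 8 (*Lum*, *Dpt*, *Pi16*, *Osr1*, *Smoc2*, *Mfap5*, and *Cd248*) had Δ1w arrays above all control arrays, against 8.53% of rows, 3 of them rose, against 1.41% of rows called (*Dpt* 1.43, *Smoc2* 1.20, *Mfap5* 1.94), and the median difference was 1.26. Their mean log2 signal ranged from 11.07 to 12.03 in Δ1w muscle and from 10.61 to 11.04 in Δ2w muscle, against 10.03 to 10.59 in control muscle. On Δ1w replicates 1, 5, and 8 it lay 0.73, 1.69, and 1.44 above the control mean. On Δ1w replicate 1 the fibrillar mean was −0.02 and the microfibrillar mean 0.09. That fibrillar mean spans genes from *Col11a1*, at −0.99, to *Col5a3*, at 0.99. The bright fibrillar genes *Col3a1*, *Col1a1*, and *Col1a2* lay at 0.38, 0.03, and −0.10 on that array. Of 6 tenocyte markers 0 passed in limma, against 1.41% of rows (2 higher at an unadjusted p under 0.05, against 7.2% of rows). Their median was 0.61, and the array values in Δ1w muscle were −0.32, 1.11, and 0.76. Median differences were −0.15 for 6 endothelial, −0.04 for 6 pericyte and smooth muscle, 0.22 for 5 macrophage, and 0.47 for 3 Schwann cell markers. Of these, 0 were called in limma. At an unadjusted p under 0.05, 2 were higher and 2 lower, against 7.2% and 6.79% of rows. The part of fibroblast or tenocyte markers in the collagen differences was not tested, and in whole muscle a change in the number of cells of a type cannot be told apart from a change in RNA per cell.

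**Figure D3:**
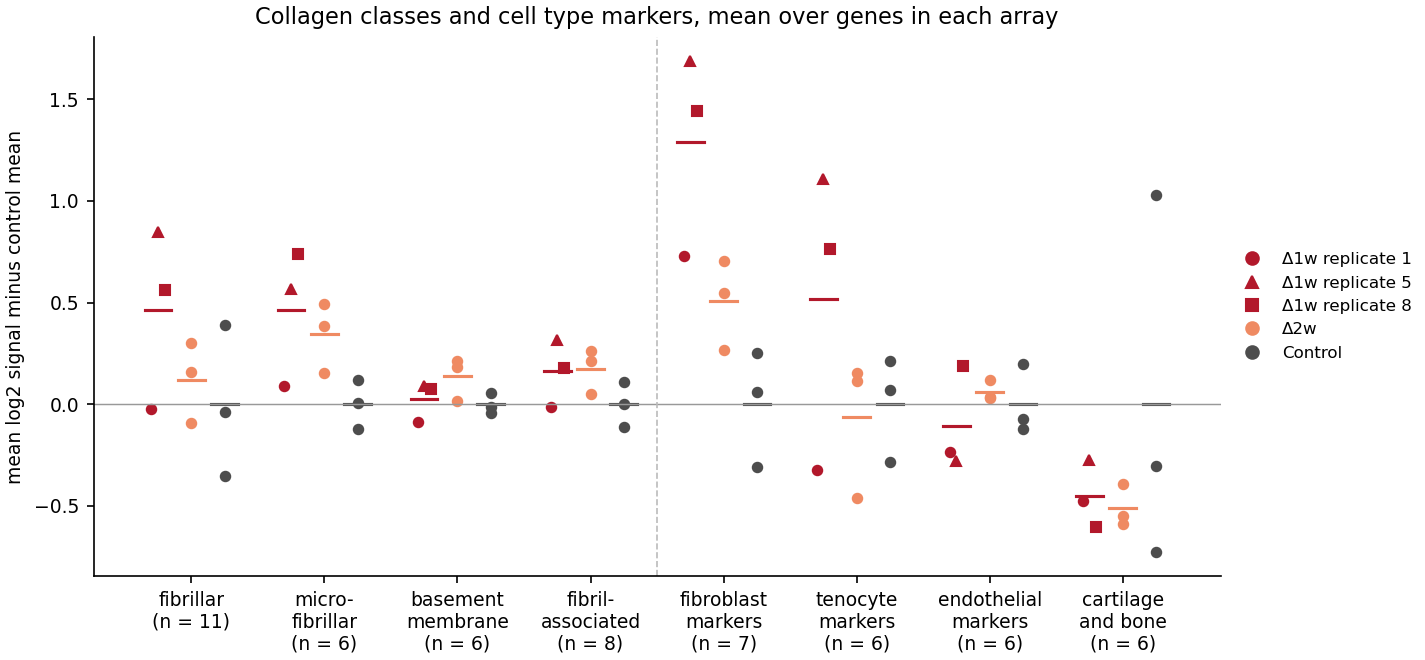
Mean log2 signal over the genes of a list minus the control mean, on single arrays, for 4 collagen classes (left of the dashed line) and 4 cell type marker lists (right), with n the number of genes and short lines at group means. Δ1w replicates 5 and 8 stand highest for fibrillar genes (0.84 and 0.56) and for fibroblast markers (1.69 and 1.44), and control replicate 6 stands highest for cartilage and bone markers (1.03).

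Δ2w muscle keeps more nuclei, and the comparison asks how this smaller loss differs from control muscle. Of 42 collagen genes, 29 were higher and 13 lower in Δ2w muscle, with a median of 0.15 against −0.00 over all rows, 49.3% of which were higher. Of these genes 0 passed in limma, against 0.045% of rows, the smallest adjusted p being 0.433. *Col6a1*, *Col6a6*, *Col16a1*, and *Col18a1* were higher at an unadjusted p under 0.05, 4 genes against 3.98% of rows, and 0 were lower, against 3.49% of rows. The 4 became 7 without control replicate 1 or Δ1w replicate 1, 2 without control replicate 6 or Δ2w replicate 4, and 1 without control replicate 2, without Δ2w replicate 2, or with the LacZ covariate. All Δ2w arrays lay above all control arrays in 8 genes, against 7.52% of rows (*Col4a4*, *Col5a3*, *Col6a1*, *Col6a6*, *Col15a1*, *Col16a1*, *Col18a1*, and *Col25a1*), and below them in *Col4a5*, against 7.25% of rows. Class medians were 0.49 for microfibrillar, 0.51 for multiplexin, 0.23 for transmembrane, 0.19 for basement membrane, 0.16 for fibrillar, and 0.10 for fibril-associated genes, and −0.06 for network-forming and −0.18 for other genes. Over the 9 genes above the background limit the median was 0.47, with all 9 higher. Over the 33 others it was 0.06, with 20 higher and 13 lower. *Col6a6* differed by 0.65 (95% interval 0.26 to 1.04, adjusted p = 0.433), *Col16a1* by 0.66 (adjusted p = 0.645), *Col18a1* by 0.52 (adjusted p = 0.659), and *Col6a1* by 0.52 (adjusted p = 0.66). *Col3a1* differed by 0.65 (1.57-fold, adjusted p = 0.68), whereas *Col1a1* and *Col1a2* differed by 0.27 and 0.17 with intervals of −0.39 to 0.93 and −0.64 to 0.97. Among the mice that share a name prefix (all Δ2w mice and control replicates 1 and 6), the differences were 0.62 for *Col6a6*, 0.52 for *Col6a1*, 0.40 for *Col3a1*, and 0.08 for *Col1a1*, and the median over fibrillar genes was −0.07. Fibroblast markers had a median of 0.64 in Δ2w muscle, and 0 of 7 passed in limma, against 0.045% of rows. At an unadjusted p under 0.05, 4 were higher, against 3.98% of rows. The part of these markers in the collagen values was not tested.

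When the models were set against each other, the class with the highest median was again the fibrillar genes, at 0.47. In Δ1w muscle 19 collagen genes were higher and 23 lower than in Δ2w muscle, with a median of −0.02, and 50.1% of all rows were higher. Of these genes 0 passed in limma, against 0.0045% of rows. At an unadjusted p under 0.05, *Col5a1*, *Col5a3*, *Col8a1*, and *Col27a1* were higher, 4 genes against 4.3% of rows, and *Col17a1*, a collagen of skin anchoring junctions, was lower, against 3.99% of rows. The count of higher genes was 11 without Δ1w replicate 1 or with the LacZ covariate and 2 without Δ1w replicate 8. *Col8a1* differed by 1.47 (95% interval 0.76 to 2.18, adjusted p = 0.264), *Col5a1* by 0.63 (adjusted p = 0.533), and *Col5a3* by 0.60 (95% interval 0.26 to 0.94, adjusted p = 0.336). The arrays did not overlap in *Col5a1*, *Col5a3*, *Col8a1*, and *Col13a1*, all higher in Δ1w muscle, against 7.2% of rows, nor in *Col23a1*, lower, against 6.97% of rows. Class medians were 0.05 for microfibrillar, −0.05 for fibril-associated, and −0.16 for basement membrane genes. Over the 9 genes above the background limit the median was 0.32, with 7 higher and 2 lower. Over the 33 others it was −0.06, with 12 higher and 21 lower. For *Col6a6* and *Col18a1* the differences were −0.02 (95% interval −0.41 to 0.37) and −0.03 (95% interval −0.53 to 0.47). Without Δ1w replicate 1, *Col8a1* passed (1.87, adjusted p = 0.0306), against 0.261% of rows. No Δ1w mouse shared a name prefix with a Δ2w mouse, so prefix and group cannot be told apart here. The LacZ allele was present in every Δ2w mouse but only in Δ1w replicate 5. Both comparisons with control muscle use the same 3 control arrays, so their values for a gene are not independent.

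Genes that make, trim, bind, or degrade collagen were followed in 7 lists. Of 84 such genes measured in Δ1w muscle, 27 were higher and 2 lower at an unadjusted p under 0.05 (limma). Over all rows these shares were 7.2% and 6.79%. After adjustment, 1 of the 84 passed, against 1.41% of all rows. This was *Lama2*, which encodes the laminin chain of the muscle basement membrane. *Lama2* had log2 signals of 12.26, 12.62, and 12.61 in Δ1w muscle and 12.26, 12.10, and 12.32 in Δ2w muscle, against 11.52, 11.38, and 11.66 in control muscle. It rose by 0.98 in Δ1w muscle (standard error 0.17, adjusted p = 0.0172), and in Δ2w muscle it differed by 0.71 (adjusted p = 0.293), with every array of both models above every control array. The other 10 basement membrane partners did not pass, among them the linker *Nid1* (0.90, adjusted p = 0.0601), *Lamb1* (0.85, adjusted p = 0.186), and *Agrn*, the proteoglycan agrin (−0.40, adjusted p = 0.344). With *Lama2*, 4 of the 11 were higher and 1 lower at an unadjusted p under 0.05, and the median was 0.27. Of 10 fibril partners 0 passed in limma (5 higher at an unadjusted p under 0.05), all 10 were higher in Δ1w muscle, and the median was 0.89. *Dcn*, the proteoglycan decorin that coats type I fibrils, differed by 0.94 (adjusted p = 0.0725), *Tnxb*, a tenascin that links fibrils, by 1.06 (adjusted p = 0.0709), and *Thbs1*, a thrombospondin, by 1.54 (adjusted p = 0.121). On Δ1w replicates 1, 5, and 8 the fibril partners averaged −0.02, 1.23, and 0.97 above control muscle, the same order of arrays as the fibrillar genes.

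For comparison, 1.41% of all rows passed in Δ1w muscle, and 7.2% were higher and 6.79% lower at an unadjusted p under 0.05 (limma). Of 16 collagen synthesis genes 0 passed in Δ1w muscle (limma, 3 higher and 1 lower at an unadjusted p under 0.05), and the median was 0.14. The prolyl hydroxylases *P3h2* and *P4ha1* differed by 0.97 and 0.97 (adjusted p = 0.0678 and 0.0841), and the lysyl hydroxylase *Plod1* by −0.73 (adjusted p = 0.0914), with every Δ1w array below every control array. Of 12 processing and crosslinking genes 0 passed (limma, 6 higher at an unadjusted p under 0.05), with a median of 0.41, and examples were *Pcolce*, an enhancer of procollagen trimming (1.20, adjusted p = 0.057), *Loxl1*, a lysyl oxidase (1.08, adjusted p = 0.0668), and the transglutaminase *Tgm2* (1.03, adjusted p = 0.0619). Of 15 degradation genes 0 passed (limma, 4 higher at an unadjusted p under 0.05), 6 were lower than in control muscle, and the median was 0.04. *Mmp2*, a gelatinase, differed by 1.40 (adjusted p = 0.0598), *Mmp3* by 0.76 (adjusted p = 0.0885), and the inhibitor *Timp2* by 0.81 (adjusted p = 0.115), while another inhibitor, *Timp4*, differed by −0.65 (adjusted p = 0.378). All *Mmp3* signals, 4.51 to 5.53, lay under the median of the negative controls, 6.00. In addition, *Mmp13*, a collagenase of bone, differed by −2.11, with a signal of 11.08 in control replicate 6 and of 4.25 to 5.44 on the other arrays. Of 9 receptors 0 passed (limma, 2 higher at an unadjusted p under 0.05), 4 were lower than in control muscle, and the median was 0.06, with *Ddr2*, a kinase that binds fibrillar collagen, at 0.62 (adjusted p = 0.134), *Itga2* at 0.71 (adjusted p = 0.345), and *Itga11* at 0.46 (adjusted p = 0.358). Of 11 TGF-beta signalling genes 0 passed (limma, 3 higher at an unadjusted p under 0.05), the median was 0.21, and 4 were lower, with *Tgfb2* at 0.46, *Tgfbi* at 0.76, and *Tgfbr2* at 0.53 (adjusted p from 0.283 to 0.357). In Δ2w muscle 0 genes of the 7 lists passed in limma, against 0.045% of all rows. At an unadjusted p under 0.05, 12 were higher and 1 lower, against 3.98% and 3.49% of rows.

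**Figure D4:**
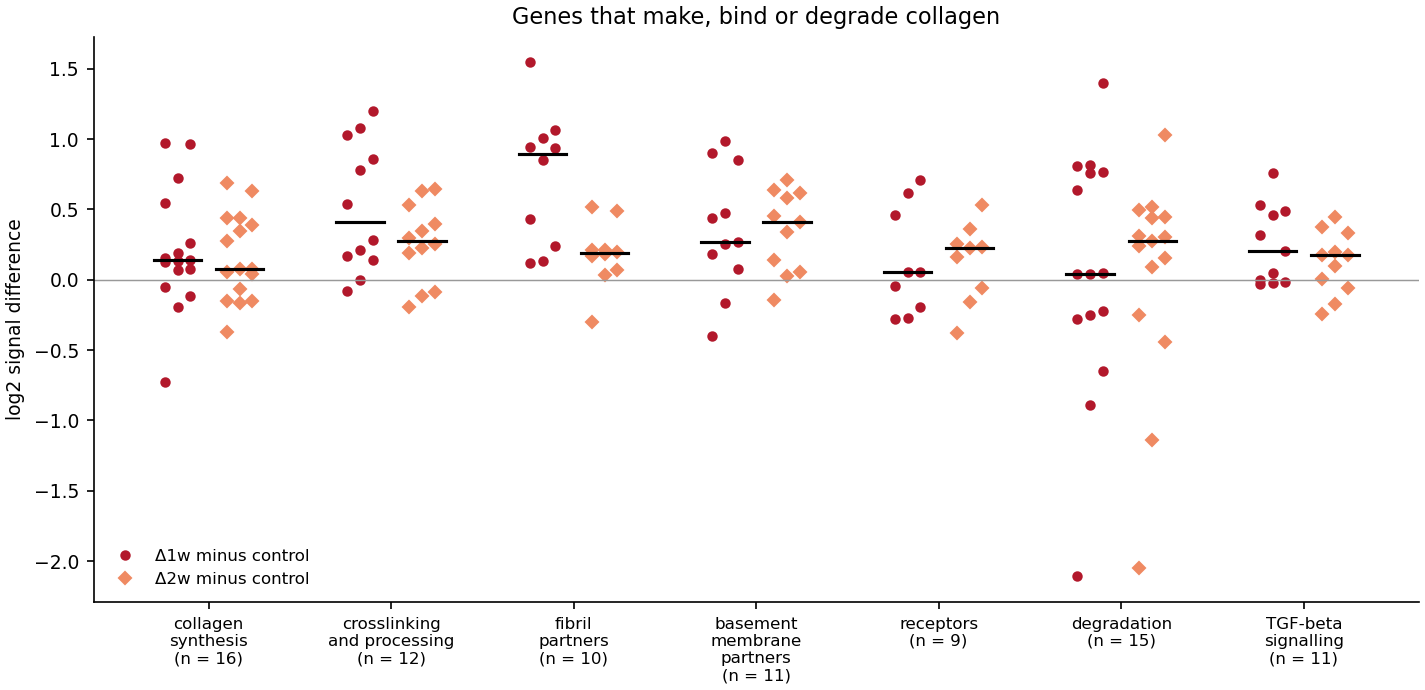
Difference in log2 signal from control muscle for genes of 7 lists, Δ1w (red circles) and Δ2w (orange diamonds), with black lines at list medians and n the number of genes. Fibril partners had a median of 0.89 in Δ1w muscle and 0.19 in Δ2w muscle.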

How the data were processed

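Total RNA from flash-frozen TA muscle of 9 mice was hybridised to Clariom S Mouse arrays, 1 per mouse. The replicates are separate mice, so the p-values set a difference against the spread between mice within groups. In Δ1w and control muscle that spread includes differences between name prefixes. The authors made the deposited log2 signals with sst-rma (signal space transformation followed by robust multi-array averaging), a procedure that removes background, normalizes the arrays to each other, and summarises probes into 1 value per gene row. Affymetrix Expression Console is the software listed in the processing notes of the submitters. Which genome build the array annotation rests on was not given in the sources used here. Of 28846 rows, 6640 control rows were left out, and 22206 gene rows were fitted, 19572 of them with 1 symbol. *Col7a1* and *Col12a1* were not analysed here. The number of arrays limits the precision, and median log2 signals of the gene rows per array ran from 6.37 to 6.44. Medians of the negative control rows ran from 5.77 on Δ1w replicate 8 to 6.25 on control replicate 2, with 5.96 on Δ1w replicate 5. The part of this spread in background in the differences of dim genes was not tested.

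Differences came from a single limma 3.58.1 model over the 3 groups (lmFit and contrasts.fit, moderated by eBayes; R 4.3.3). This left 6 residual degrees of freedom, and p-values were adjusted over 22206 rows by Benjamini-Hochberg. Intervals come from the same fit. On simulated data for Δ1w against control over 22206 rows, with 200 rows changed, 64.8% of log2 changes of 1 and 99.6% of log2 changes of 2 were recovered, and the 20 simulations averaged 9.85 false calls. Simulated arrays had independent normal noise with the same spread in every group, and all Δ1w arrays were shifted alike. The recovered shares therefore do not carry over to genes in which Δ1w mice differ from each other, or to differences between name prefixes. Collagen classes, companion lists, and marker lists were written from textbook knowledge, and members and lists were chosen with earlier results of these data known. Lists were not tested. Named with single arrays are members called in any comparison, the 6 brightest in control muscle, and up to 3 per class above the background limit with the smallest p in Δ1w muscle. *Col6a6*, *Col8a1*, *Col13a1*, and *Col16a1* were chosen after their values were seen. From each companion list the called members or the 3 with the smallest p are named, and *Mmp13*, *Timp4*, *Nid1*, *Lamb1*, and *Agrn* were added after their values were seen. Promoter windows are from RefSeq (GRCm38.p6), and protein sequences were not used here. Alternatives were leaving out each mouse, the LacZ allele as a covariate, the methods' t-test, an unadjusted p with a 2-fold change, the name prefix (random block, or its shared mice only), a fit of the compared groups alone, array weights, a robust variance with a trend, a floor of 6 on the mean log2 signal, median centring, and quantile normalization. The methods' t-test is the unpaired t-test of the paper's general statistics section. For differential expression on the arrays the methods name the Transcriptome Analysis Console. Figures were drawn with matplotlib 3.10.9.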

Additional observations from a re-analysis of the deposited data

How the results depend on the processing

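Outside the fits that leave out a mouse, 128 of 177 counts and list medians stayed close to their value. A count was close if it stayed within a fixed factor, and a median if it moved by less than its SD between arrays within groups. That SD was 0.42 for the fibrillar median of 0.74 in Δ1w against control muscle, so a large shift could still count as close. Single genes were not part of these 177. For Δ1w against control muscle, *Col5a3* passed in 11 of 18 alternatives, with differences of 0.80 to 0.99 and adjusted p of 0.0232 to 0.244 (limma, or the methods' t-test after Benjamini-Hochberg). The count of collagen genes called, 1, was 2 at a minimum mean log2 signal of 6 (which removes *Col5a3*, and which *Col8a1*, 1 of the 2, passes only through its Δ1w mean of 7.29, against 5.82 in Δ2w and 5.88 in control muscle), 3 with a trended and robust variance, with the LacZ covariate, or at an unadjusted p with a 2-fold change, 0 in limma with only the 2 groups (12 higher and 1 lower at an unadjusted p under 0.05), and 0 and 5 by the methods' t-test after and before adjustment. The count over all rows, 312, was 544 with that minimum signal, where the collagen median was 0.42, 521 with the trended variance, 131 with only the 2 groups, 178 with the prefix block, and 0 and 2154 by the methods' t-test. Without both Δ1w replicates 5 and 8, chosen after seeing the data, collagen and all rows called were 0 and 20, class medians were 0.026 (fibrillar), −0.19 (basement membrane), 0.10 (microfibrillar), and −0.037 (fibril-associated), and *Col1a2*, *Col4a1*, and *Col4a2* turned to −0.10, −0.43, and −0.22. *Col4a1* was also negative after median centring (−0.0099).

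For Δ2w against control muscle, rows called, 10, were 96 with the 2-fold rule, 18 after median centring, 23 with the minimum signal, 40 with the trended variance, 32 with array weights, 21 with only the 2 groups, 20 with the prefix block, 1 within the shared prefix, 5 with the LacZ covariate, and 0 and 1681 by the methods' t-test, which called 7 collagen genes before adjustment. With the LacZ covariate the fibrillar median and *Col1a2* were −0.0815. For Δ1w against Δ2w, 1 row called became 143 with the 2-fold rule (1 collagen gene, *Col8a1*), 10 with the trended variance, 0 with the prefix block, the LacZ covariate, or Δ1w replicate 1 alone, and 0 and 1542 by the methods' t-test (3 collagen genes before adjustment). The fibril-associated median was −0.17 with the minimum signal and 0.10 with the LacZ covariate. With Δ1w replicate 1 alone, medians were −0.27 (all collagens), −0.25 (fibrillar), −0.38 (basement membrane), −0.35 (microfibrillar), and −0.24 (fibril-associated).

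Leaving out each mouse gave 0 to 9 collagen genes and 104 to 653 rows for Δ1w against control, 0 to 21 rows for Δ2w against control, and 0 to 1 collagen genes and 0 to 58 rows for Δ1w against Δ2w. *Col4a1* ranged from −0.14 to 0.26 in Δ1w muscle, *Col8a1* from −0.18 to 0.19 and *Col1a2* from −0.0043 to 0.44 in Δ2w muscle, with the fibril-associated median from 0.0186 to 0.14 there. Class medians for Δ1w against control ranged from 0.47 to 0.83 (fibrillar), 0.54 to 0.71 (microfibrillar), −0.018 to 0.19 (basement membrane), and −0.0066 to 0.12 (fibril-associated). The fibrillar median ranged from −0.069 (without control replicate 2) to 0.32 for Δ2w against control and from 0.29 to 0.61 for Δ1w against Δ2w, and the basement membrane median of Δ1w against Δ2w from −0.24 to 0.0207. The causes were not tested. No paired analysis was run, because the labels give no pairing of mice across groups. The lowest-mean row per symbol was not run, since 0 collagen symbols have several rows. With 3 mice per group, 33 of 42 collagen genes under the background limit, and no Δ1w mouse sharing a prefix with a control or Δ2w mouse, differences in dim genes and between prefixes limit what can be read.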
